A study of Mus musculus with 7 samples.

Results

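The miR-106a to miR-363 cluster is a run of 6 microRNA hairpins on the mouse X chromosome. Of the mature arms that only this cluster makes, 7 were followed across naive CD8+ T cells of neonatal and adult mice. The arms were chosen by name, as the lines of the deposited table for mmu-miR-106a-5p, mmu-miR-18b-5p, mmu-miR-18b-3p, mmu-miR-20b-5p, mmu-miR-20b-3p, mmu-miR-363-5p and mmu-miR-363-3p (the mouse prefix is mostly left out from here on) rather than by a threshold on their values; the cluster was picked with earlier results of these data known. They are 7 of the 1978 mature miRNAs listed, and all 7 were present. CD8+ T cells came from the spleen of gBT-I mice, a strain whose T cells carry 1 transgenic T cell receptor, and every group shares that transgene. Cells were sorted as CD44hi CD122hi, here called virtual memory (VM) cells, since they bear markers of memory cells before any contact with antigen, or as CD44lo CD122lo, the true naive (TN) cells. Small RNA libraries numbered 2 for adult VM, 2 for adult TN, 2 for neonatal VM and 1 for neonatal TN, which therefore has no SD. The labels give no age beyond neonatal or adult and do not tell if replicates are different animals, pools or repeat preparations, so p-values reflect only the scatter among these libraries, possibly a technical one.

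The cluster is a copy of the better known miR-17 to miR-92a cluster on chromosome 14, and a further related cluster on chromosome 5 holds miR-106b, miR-93 and miR-25. The clusters arose by duplication, and their products fall into shared seed families: the seed, bases 2 to 8 of the mature strand, is the stretch that chiefly decides which messenger RNAs a miRNA binds. The miR-17 to miR-92a cluster is known to favour lymphocyte proliferation and survival, while the X-linked copy is known from T cell leukaemias of mice, where retroviruses integrate beside it. One primary transcript is cut into hairpins, and each hairpin gives a 5p and a 3p arm, of which usually 1 is kept and the other is mostly lost.

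On GRCm38 the 6 hairpins lie on the minus strand of chromosome X within 875 bases, in the order of transcription Mir106a (52742503 to 52742567), Mir18b (52742331 to 52742413), Mir20b (52742113 to 52742192), Mir19b-2 (52741983 to 52742066), Mir92-2 (52741838 to 52741928) and Mir363 (52741693 to 52741767). In the GENCODE M21 annotation, Mir106a overlaps 5 bases of an exon of Kis2, a noncoding transcript of the same strand (52742563 to 52744960), and no other gene overlaps the remaining 5 hairpins. The 4 guide arms of the cluster and their counterparts from chromosome 14 follow, because the counts of near-identical arms depend on the few bases that separate them; the seed is in capitals, and all sequences are RefSeq's for GRCm38, which held 6 of the 7 members.
miR-106a-5p: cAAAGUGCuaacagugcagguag
miR-17-5p: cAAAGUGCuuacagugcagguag
miR-20b-5p: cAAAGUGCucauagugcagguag
miR-20a-5p: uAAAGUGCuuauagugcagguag
miR-18b-5p: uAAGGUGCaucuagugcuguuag
miR-18a-5p: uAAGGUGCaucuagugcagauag
miR-363-3p: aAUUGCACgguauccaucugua
miR-92a-3p: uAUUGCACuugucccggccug
Counting from the 5′ end and giving the base of the cluster member first, miR-106a-5p differed from miR-17-5p by A10U alone. The second pair, miR-20b-5p and miR-20a-5p, differed by C1U and C10U. In miR-18b-5p both differences from miR-18a-5p, U18A and U20A, lie near the 3′ end. Outside the seed miR-363-3p is a distinct sequence, with 11 differences from miR-92a-3p over the shared length, and its deposited counts were whole in 7 of 7 libraries. The second arms of the Mir18b and Mir20b hairpins are also distinct, and the seed of miR-18b-3p is that of miR-18a-3p read from 1 base earlier.
miR-18b-3p: uACUGCCCuaaaugccccuucu
miR-18a-3p: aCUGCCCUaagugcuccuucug
miR-20b-3p: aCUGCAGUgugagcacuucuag
The 2 hairpins whose arms changed most are shown whole, 5′ to 3′, with the mature arms that RefSeq lists in capitals.
Mir18b: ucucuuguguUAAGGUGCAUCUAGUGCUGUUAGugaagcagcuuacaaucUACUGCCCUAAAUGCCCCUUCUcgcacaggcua
Mir363: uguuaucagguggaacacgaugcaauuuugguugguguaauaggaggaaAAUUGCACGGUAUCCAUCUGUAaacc

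Library totals ran from 1577031 to 3278449 counts, and levels are given as CPM, counts scaled to library size and by TMM factors. MiR-150-5p, abundant in mature lymphocytes, was at 62258 CPM or more in every library and miR-142a-5p, a miRNA of blood cells, at 43348 or more. As markers of other cells, a list of 10 erythroid, myeloid, progenitor and stromal miRNAs was summed. The sum was 147.9 to 388.2 CPM in the 4 adult libraries and 217.1 to 386.2 in the 3 neonatal ones, so the ages overlapped in it. The largest marker was erythroid miR-486a-5p, at 120.9 to 293.8 CPM in adult and 76.82 to 220 in neonatal libraries. The sum leans on this marker and does not show how the rarer ones differed. Erythroid miR-451a was above 0 in every library, at 2.14 to 3.111 CPM in adult and 2.874 to 9.646 in neonatal ones, while miR-144-3p was at 0 in 4 libraries and stromal miR-145a-5p in 6. With age over both subsets, 5 of the 10 were tested. MiR-126a-3p (log2 fold change 1.28), miR-126a-5p (2.17) and miR-143-3p (1.82) were higher in neonatal cells. MiR-486a-5p (-0.71) and miR-10b-5p (0.73) did not pass. In VM cells alone, miR-126a-3p and miR-126a-5p were higher and miR-486a-5p was lower (-1.73, adjusted p = 7.38e-05 by edgeR). In TN cells, with 1 neonatal library, the log2 fold changes were 3.46 for miR-126a-5p and 3.30 for miR-143-3p. There miR-10b-5p stood at 0.87, miR-126a-3p at 0.80 and miR-486a-5p at 0.64. MiR-143-3p, of smooth muscle and stroma, was at 4.317 to 25.93 CPM in adult and 31.65 to 67.21 in neonatal libraries. MiR-126a-3p was at 3.424 to 6.843 CPM in adult and 7.157 to 15.82 in neonatal libraries, and miR-126a-5p at 3.238 to 22.47 and 38.57 to 60.62. For miR-143-3p and both arms of miR-126a the ages did not overlap, whereas they overlapped for every other marker. Thus 3 of the 5 tested markers moved with age over both subsets as some cluster members did, beside 26.4% of all tested miRNAs called higher. That count cannot be read as support, since miR-126a-3p was below 10 CPM in every adult library and was tested only through neonatal ones. The part of the markers in the results below was not tested.

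The members together came to 832.9 and 933.1 CPM in the adult VM libraries, 824.6 and 805.9 in those of adult TN, 1857 and 1759 in neonatal VM and 1528 in the neonatal TN library. All 3 neonatal libraries lay above all 4 adult libraries. The cluster was a small part of the miRNA pool, between 0.06297 and 0.2381% of a library's counts. Within it miR-363-3p held 56.06 to 80.47% of the summed level in every library, followed by miR-20b-5p and miR-106a-5p. In bulk libraries like these, a change in the share of cells that make a miRNA and a change in its amount per cell cannot be told apart.

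**Figure D1:**
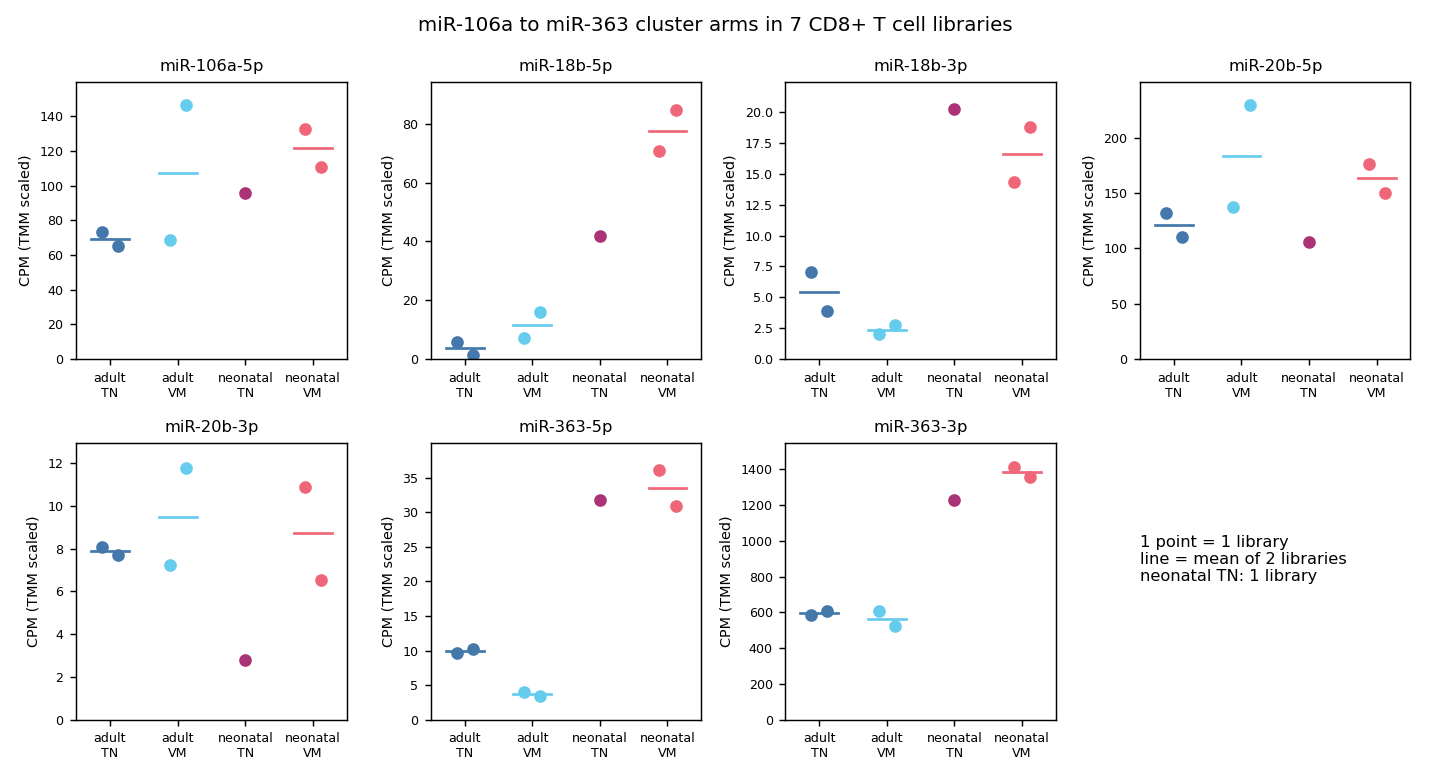
Level of each of the 7 cluster arms in CPM (scaled by TMM factors) in the 7 libraries; 1 point is 1 library and lines are means of 2 libraries. The neonatal points of both arms of miR-18b and miR-363 lie above all adult points, whereas those of miR-106a-5p, miR-20b-5p and miR-20b-3p overlap with the adult points.

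In the comparison of neonatal with adult cells over both subsets, both arms of miR-18b and of miR-363 were higher in neonatal cells, by 2.29- to 8.14-fold. MiR-106a-5p, miR-20b-5p and miR-20b-3p, from hairpins of the same run, did not pass the test; the difference between passing and other arms was not itself tested, and miR-106a-5p passed when scaled by library totals (0.75, edgeR adjusted p = 0.0493). Thus 4 of 7 members were higher and 0 lower (adjusted p of 0.05 or less by edgeR's quasi-likelihood test), and their median log2 fold change was 1.19. Of all 288 miRNAs tested, 53.8% passed, 26.4% as higher in neonatal cells and the rest of the calls as lower, and the median was -0.05. These were 76 higher of 155 calls, against 119 of 172 when scaled by library totals. The members' count cannot be read as support, since miR-18b-3p and miR-363-5p reached the 10 CPM needed for testing (before TMM scaling) in no adult library but in all 3 neonatal ones, and miR-18b-5p in 1 adult library.

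MiR-18b-5p, of the miR-18 seed family, had the largest fold change of the members over both subsets and in TN cells, but not in VM cells. Its level (mmu-miR-18b-5p) stood at 7.246 and 15.9 CPM in adult VM, 5.936 and 1.284 in adult TN, 70.71 and 84.65 in neonatal VM and 41.7 in neonatal TN. Every neonatal library was above every adult one, and the adult TN libraries, with 11 and 3 counts, were the lowest. The log2 fold change was 3.03 (SE 0.42; adjusted p = 0.000488 by edgeR), or 8.14-fold. The second arm, mmu-miR-18b-3p, was at 2.013 and 2.766 CPM in adult VM, 7.015 and 3.852 in adult TN, 14.34 and 18.81 in neonatal VM and 20.23 in neonatal TN. The ages did not overlap for this arm either (log2 fold change 2.37, SE 0.35; adjusted p = 0.000573 by edgeR), but here the neonatal TN library was the highest.

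The arm mmu-miR-363-3p, the member of the miR-92 seed family and the most abundant arm of the cluster, was at 607 and 523.1 CPM in adult VM, 588.2 and 607.3 in adult TN, 1415 and 1358 in neonatal VM and 1229 in neonatal TN. The adult libraries lay within a narrow band whatever the subset, and the neonatal libraries all stood above it, at 2.29-fold the adult level (log2 fold change 1.19, SE 0.16; adjusted p = 0.000385 by edgeR). The opposite arm, mmu-miR-363-5p, was at 4.025 and 3.457 CPM in adult VM, 9.713 and 10.27 in adult TN, 36.1 and 30.83 in neonatal VM and 31.74 in neonatal TN. The 3 neonatal libraries were nearly level, while adult VM was below adult TN. The age difference was 5.62-fold (log2 fold change 2.49, SE 0.36; adjusted p = 0.000507 by edgeR).

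The members of the miR-17 seed family differed less between ages than between the 2 adult VM libraries. The level of mmu-miR-20b-5p was 136.9 and 229.5 CPM in adult VM, 132.2 and 110.4 in adult TN, 176.5 and 150 in neonatal VM and 106.1 in neonatal TN. The highest and the lowest library of its series were an adult VM and the neonatal TN library, and the age difference was -0.18 (log2, SE 0.23; adjusted p = 0.531 by edgeR). That of mmu-miR-106a-5p was 68.43 and 146.6 CPM in adult VM, 73.39 and 65.06 in adult TN, 133 and 110.8 in neonatal VM and 95.84 in neonatal TN, with an age difference of 0.30 (log2, SE 0.28; adjusted p = 0.402 by edgeR). Adult VM replicate 2 was above every neonatal library for both arms, and without it the difference of miR-106a-5p came to 0.65 (edgeR adjusted p = 0.0498) and that of miR-20b-5p to 0.03. The deposited counts of these 2 arms were fractional in 5 of 7 libraries each; the sharing of reads between near-identical arms is not described in the sources used here, and the split from miR-17-5p and miR-20a-5p is uncertain.

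The minor arm mmu-miR-20b-3p was at 7.246 and 11.75 CPM in adult VM, 8.095 and 7.704 in adult TN, 10.88 and 6.532 in neonatal VM and 2.801 in neonatal TN. The single neonatal TN library was the lowest, with 9 counts. Over both subsets the age difference was -0.60 (log2, SE 0.40; adjusted p = 0.233 by edgeR).

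Within each subset the same 4 arms passed, in fits of the same libraries, which is no separate support. As above, miR-18b-3p and miR-363-5p reached 10 CPM in no adult library and miR-18b-5p in 1, so these calls cannot be read as support. In TN cells, where 47.9% of all tested miRNAs passed and 26.4% as higher (55.1% of its calls, and 73.6% when scaled by library totals), the log2 fold changes of neonatal over adult were 3.59 for miR-18b-5p (SE 0.64; adjusted p = 0.00162 by edgeR), 1.92 for miR-18b-3p (SE 0.51, adjusted p = 0.0091), 1.66 for miR-363-5p (SE 0.41, adjusted p = 0.00578) and 1.04 for miR-363-3p (SE 0.22, adjusted p = 0.00209). This comparison rests on 1 neonatal library, which is assumed to vary like the others. The value of miR-18b-5p moved to 4.85 without adult TN replicate 1 and to 2.68 without replicate 2, and passed both times (edgeR adjusted p = 0.0048 and 0.027). Of its calls, 2 depended on single adult TN libraries: miR-18b-3p did not pass without replicate 2 (1.40, edgeR adjusted p = 0.106), and miR-363-5p did not pass without replicate 1 (0.0556) or without replicate 2 (0.0511). DESeq2 did not call miR-18b-3p in TN cells (1.87, adjusted p = 0.0681). In VM cells, where 53.8% passed and 22.9% as higher (66 of 155 calls, and 117 of 166 when scaled by library totals), they were 2.73 for miR-18b-5p (SE 0.48, adjusted p = 0.00121), 2.78 for miR-18b-3p (SE 0.49, adjusted p = 0.000502), 3.14 for miR-363-5p (SE 0.39, adjusted p = 3.87e-05) and 1.30 for miR-363-3p (SE 0.19, adjusted p = 0.000102). MiR-18b-5p stood at 3.47 without adult VM replicate 2 and at 2.28 without replicate 1, past the threshold both times. The other 3 arms ranged from -1.48 to 0.47 in TN and from -0.19 to 0.18 in VM cells, with adjusted p from 0.0862 to 0.736. Without adult VM replicate 2, miR-106a-5p passed as higher in neonatal VM cells (0.88, edgeR adjusted p = 0.00648), and without adult VM replicate 1 it stood at -0.28.

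**Figure D2:**
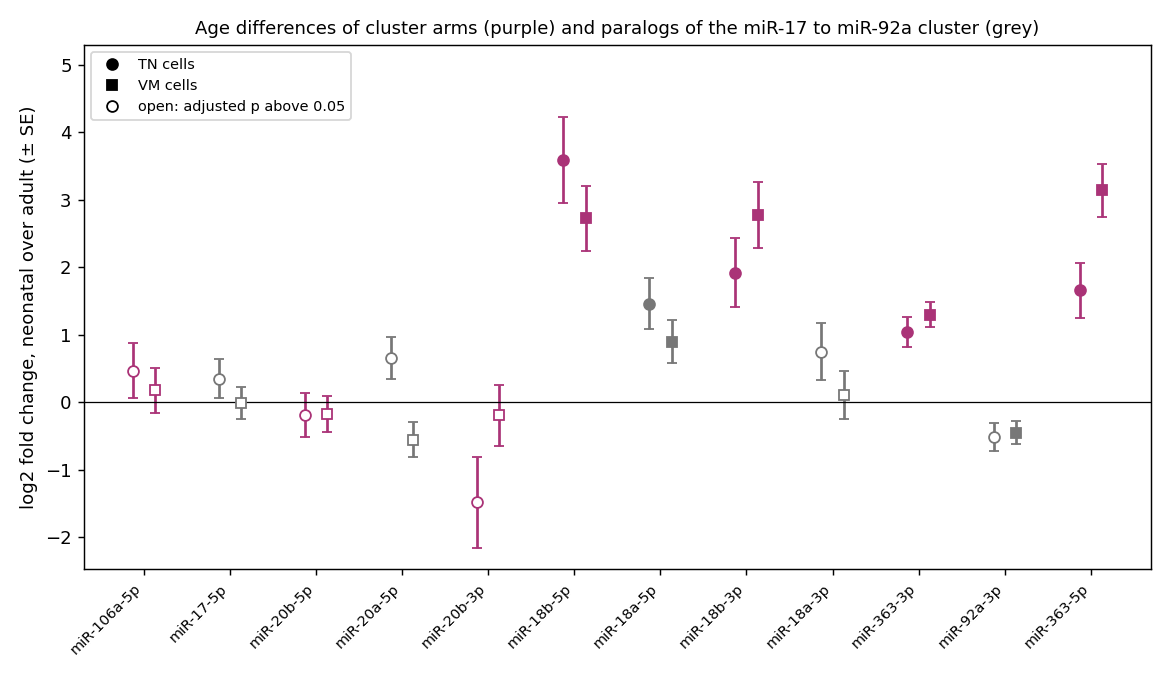
Log2 fold change of neonatal over adult cells for the cluster arms (purple) and their counterparts of the miR-17 to miR-92a cluster (grey), in TN (circles) and VM cells (squares), with SE; open symbols did not pass at an adjusted p of 0.05. The arms of miR-18b and miR-363 lie above 1 in both subsets, and the other cluster arms lie around or below 0.5.

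No difference between the effects of age in the 2 subsets was detected. In the test of that difference 0 of 7 members passed (edgeR), against 7.99% of all tested miRNAs; 1 had an unadjusted p under 0.05, and DESeq2 called 0. That one was miR-363-5p, whose fitted age effect was larger in VM than in TN cells by 1.48 on the log2 scale (SE 0.58; adjusted p = 0.147 by edgeR).

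The comparison of VM with TN cells gave fewer calls among the members. Over both ages 0 of 7 members passed the edgeR test, against 24.7% of all tested miRNAs, with 2 at an unadjusted p under 0.05; DESeq2 called 1, miR-18b-5p. MiR-18b-5p was higher in VM cells by 1.28 (log2, SE 0.45; adjusted p = 0.065 by edgeR), miR-20b-5p by 0.61 (SE 0.23, adjusted p = 0.0867) and miR-20b-3p by 0.73 (SE 0.40, adjusted p = 0.211), none of them past the threshold. The arms miR-363-5p, at -0.67 (SE 0.37, adjusted p = 0.207), and miR-18b-3p, at -0.65 (SE 0.36, adjusted p = 0.211), had the opposite sign and did not pass either. The difference of miR-106a-5p was 0.52 (SE 0.29) and that of miR-363-3p 0.02 (SE 0.16). Without the neonatal TN library, miR-363-5p passed as lower in VM cells (-1.42, edgeR adjusted p = 0.0219). MiR-18b-5p had the lowest adjusted p: its adult libraries read 18 and 46 counts in VM against 11 and 3 in TN.

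In adult cells alone, 1 of 7 members passed, against 38.9% of all tested miRNAs. MiR-363-5p was lower in VM than in TN cells, at 3.741 ± 0.4019 CPM against 9.993 ± 0.3949 (mean ± SD, n = 2 each), a log2 difference of -1.41 (SE 0.43; adjusted p = 0.0221 by edgeR). The groups did not overlap, but these were 10 and 10 counts against 18 and 24, and the call was lost without either adult TN library (adjusted p = 0.0669 and 0.104). MiR-18b-5p stood at 1.76 in the other direction and did not pass (SE 0.63; adjusted p = 0.0513 by edgeR). Without adult TN replicate 1, with 11 counts, its value was 3.02 and passed (edgeR adjusted p = 0.0417), and without adult TN replicate 2, with 3 counts, it was 0.93 (adjusted p = 0.326). It came to 0.97 without adult VM replicate 2 (adjusted p = 0.171), and it passed at 1.73 without either neonatal VM library. Adult VM replicate 1 was the low one of its pair for miR-106a-5p, miR-20b-5p and miR-18b-5p, and without it these 3 passed as higher in adult VM cells (1.05, 0.89 and 2.18). Without adult VM replicate 2, miR-106a-5p stood at -0.14. In neonatal cells 0 of 7 passed with edgeR, against 9.72% of all tested miRNAs; 1 had an unadjusted p under 0.05, miR-20b-3p at 1.57 (SE 0.65, adjusted p = 0.174), and DESeq2 called 0.

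Each hairpin gives 2 arms from 1 precursor, and the ratio of their counts within 1 library does not depend on scaling. These ratios were looked at after the values were seen and were not tested. The ratio of miR-363-3p to miR-363-5p was 151 in both adult VM libraries, 60.6 and 59.1 in adult TN, 39.2 and 44 in neonatal VM and 38.7 in neonatal TN. It was highest in adult VM, and the 3 neonatal libraries lay below all adult ones. MiR-363-5p had only 10 counts in each adult VM library and 18 and 24 in adult TN. The 95% Wilson intervals for the 3p share were 98.8 to 99.6% in both adult VM libraries and 97.4 to 99% and 97.5 to 98.9% in adult TN. In neonatal VM they were 96.9 to 98% and 97.3 to 98.1%, and in neonatal TN 97 to 97.9%. Those of adult TN overlapped with all others. MiR-18b-5p outnumbered miR-18b-3p in both VM groups, at 3.6 and 5.75 in adult and 4.93 and 4.5 in neonatal VM, and by less in neonatal TN, at 2.06. In adult TN the order was turned, at 0.846 and 0.333, on 24 counts or fewer of both arms, with 95% Wilson intervals for the 5p share of 27.9 to 64.9% and 8.89 to 53.2%. These intervals reflect only counting error within 1 library, with each read taken as independent. No molecular identifiers show which reads are copies of 1 molecule, so the intervals may be too narrow. MiR-20b-5p exceeded miR-20b-3p by 14.3- to 23-fold in 6 libraries and by 37.9-fold in neonatal TN.

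**Figure D3:**
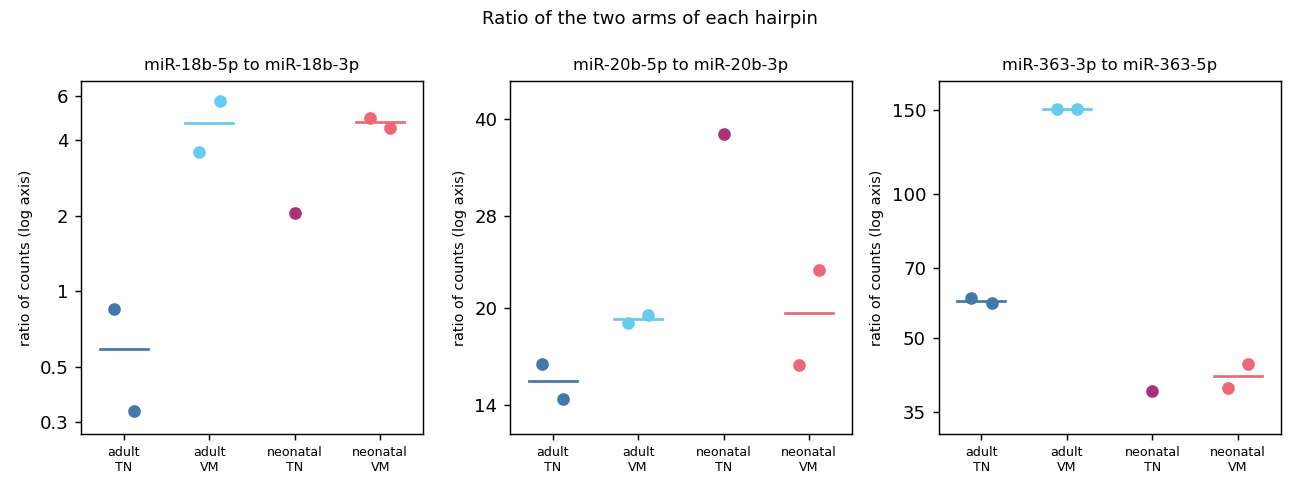
Ratio of counts of the first named to the second named arm of the Mir18b, Mir20b and Mir363 hairpins in the 7 libraries, on log axes; 1 point is 1 library and lines are means of 2 libraries. The ratio for Mir363 is at 151 in adult VM and between 38.7 and 44 in neonatal libraries, and that for Mir18b is below 1 only in adult TN.

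Ratios between arms of different hairpins restate the same levels without scaling and were not tested. MiR-18b-5p came to 0.0116 to 0.0693 of miR-20b-5p in adult libraries and to 0.393 to 0.564 in neonatal ones. MiR-363-3p came to 2.28 to 5.5 times miR-20b-5p in adult and to 8.02 to 11.6 times in neonatal libraries. For miR-106a-5p the ratio to miR-20b-5p was 0.5 to 0.639 in adult and 0.739 to 0.903 in neonatal libraries, a smaller step in which the ages again did not overlap.

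The other mature arms of the run are either rare or shared with chromosome 14. MiR-106a-3p had 2 counts in neonatal TN and 0 elsewhere, miR-19b-2-5p had 1 count in 1 neonatal VM library, and miR-92a-2-5p had 6 counts at most. MiR-19b-3p and miR-92a-3p are made with the same sequence by both clusters, and the deposited table lists them once per hairpin. For miR-19b-3p the line of the X hairpin held 50.23 to 50.58% of the counts in every library. For miR-92a-3p the X line, Mir92-2, held 22.1 ± 0.368% in adult TN and 23.3 ± 1.54% in adult VM libraries (SD, n = 2 each), then 25.9% in the neonatal TN library and 28.4 ± 0.255% in those of neonatal VM (n = 2). The range was 21.83 to 24.35% in adult and 25.95 to 28.57% in neonatal libraries, with no overlap. Because the arms are identical, only bases beyond them can assign a read: the next base is U in the chromosome 14 hairpin and A in the X hairpin, and the rule by which the authors split the reads is not given in the sources used here. The difference was noticed after the values were seen and was not tested.

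The clusters can be compared through their pairs of counterparts, again as ratios within a library. MiR-18b-5p came to 18 counts against 92 of miR-18a-5p and 46 against 174 in adult VM, 11 against 69 and 3 against 65 in adult TN, 143 against 152 and 324 against 404 in neonatal VM and 134 against 287 in neonatal TN. Thus the X-linked copy supplied 18.6 ± 3.21% of the miR-18 seed family in adult VM libraries, 9.08 ± 6.6% in those of adult TN and 46.5 ± 2.81% in those of neonatal VM (SD, n = 2 each). In the neonatal TN library it supplied 31.8% (95% Wilson interval 27.6 to 36.4%), and in adult TN replicate 2, on 3 counts, 4.41% (1.51 to 12.2%). Deposited counts of miR-18b-5p were whole in only 5 of the 7 libraries. How reads were shared with miR-18a-5p is not described in the sources used here, so these shares are uncertain. The mean log2 ratio was -0.50 in neonatal and -2.76 in adult libraries. The difference of 2.26 had no overlap between ages, and an exact two-sided permutation test gave p = 0.0571, the smallest that 3 against 4 libraries allow (adjusted over 8 tests, p = 0.229). MiR-18a-5p itself was higher in neonatal cells (log2 fold change 1.12, SE 0.27, adjusted p = 0.00827 by edgeR). Both members of the family were thus higher, by 8.14- and 2.18-fold, beside 26.4% of all tested miRNAs called higher.

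The pair of miR-363-3p and miR-92a-3p moved in the same direction from a very different level. MiR-363-3p supplied 0.305 ± 0.0292% of the miR-92 seed family in adult TN libraries, 0.372 ± 0.0114% in those of adult VM, 1.27 ± 0.0779% in neonatal VM (SD, n = 2 each) and 0.859% in neonatal TN, since miR-92a-3p stood at 88705 CPM or more everywhere. The log2 ratio of miR-363-3p to miR-92a-3p was -6.29 in neonatal and -8.03 in adult libraries, a difference of 1.74 without overlap (exact two-sided permutation p = 0.0571, adjusted p = 0.229). Here the counterparts differed in sign: miR-92a-3p was lower in neonatal cells at -0.48 (SE 0.15; adjusted p = 0.0243 by edgeR), although scaled by library totals it was at -0.03 and did not pass. Of the 5 tested members of the family, miR-363-3p was the only one higher, and miR-92a-3p, miR-32-5p (-1.47) and miR-92b-3p (-1.87) were lower. MiR-25-3p did not pass. Of all tested miRNAs, 53.8% passed with age, 26.4% as higher.

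For the miR-17 seed family the ages overlapped. MiR-106a-5p and miR-20b-5p together held 1.7 ± 0.242% of it in adult TN libraries, 2.3 ± 1.19% in those of adult VM, 2.02 ± 0.263% in neonatal VM (SD, n = 2 each) and 1.42% in neonatal TN. The log2 ratio of miR-106a-5p to miR-17-5p differed between ages by 0.21 (exact two-sided permutation p = 0.171, adjusted p = 0.457), and that of miR-20b-5p to miR-20a-5p by -0.14 (p = 0.571, adjusted p = 0.571). With age, 0 of the 6 members of the family passed with edgeR, against 53.8% of all tested miRNAs. Of the 6, 0 had an unadjusted p under 0.05 and DESeq2 called 0. Scaled by library totals 4 passed as higher, beside 119 of all 288 tested miRNAs. Between VM and TN cells the 4 ratios differed by -0.16 to 1.48 on the log2 scale, with overlap between the subsets for each (adjusted p from 0.457 to 0.571); with 4 against 3 libraries no exact p could fall below 0.0571, so this test cannot show that the subsets are alike. MiR-20b-5p and miR-20a-5p came closest to each other in number in adult TN, at 245 against 282 and 258 against 337 counts.

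**Figure D4:**
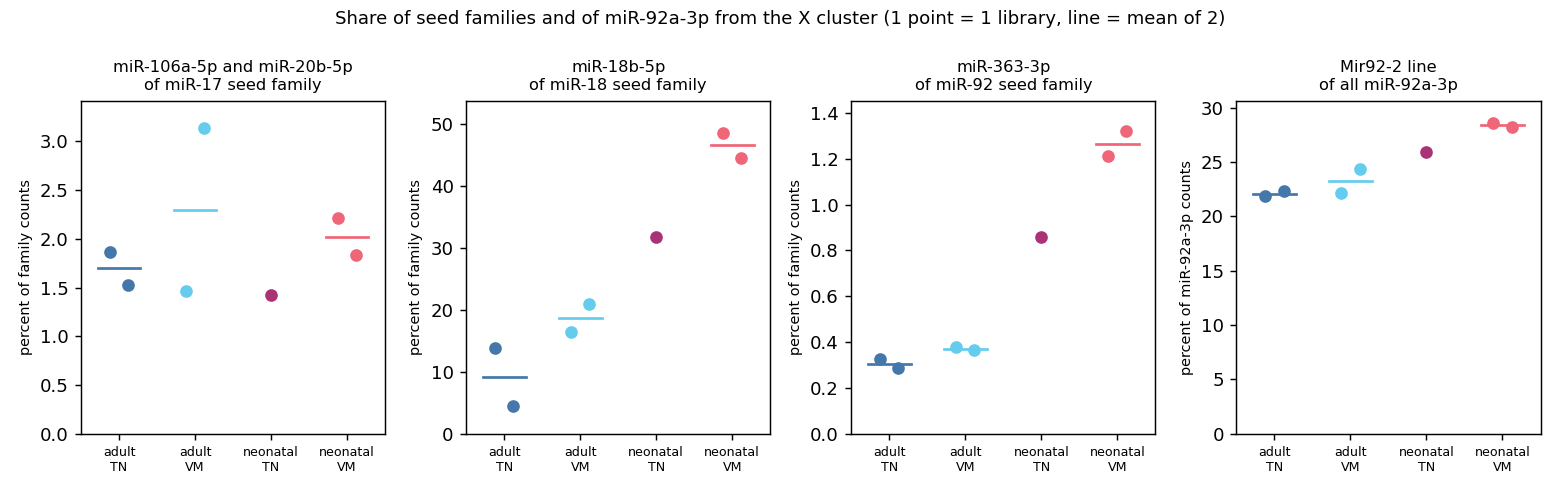
Percent of the counts of 3 seed families held by cluster members, and percent of miR-92a-3p counts on the Mir92-2 line, in the 7 libraries. The members are miR-106a-5p and miR-20b-5p (miR-17 family), miR-18b-5p (miR-18 family) and miR-363-3p (miR-92 family). MiR-92a-3p of the Mir92-2 line is counted in the miR-92 family but not as a member. Each point is 1 library, lines are means of 2, and each panel has its own axis from 0. The neonatal points lie above the adult points for the miR-18 family, the miR-92 family and Mir92-2, and overlap for the miR-17 family.

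Among the 10 arms made only by the miR-17 to miR-92a cluster, 7 were tested with age, of which 1, miR-18a-5p, was higher, 1, miR-92a-1-5p, lower (-1.13, SE 0.20; adjusted p = 0.00161 by edgeR) and 5 did not pass, with a median of 0.02. Of the 6 arms of the chromosome 5 cluster, all tested, 1 was higher, miR-106b-3p (0.75, edgeR adjusted p = 0.00922), and 5 did not pass, with a median of 0.31. Both counts stand beside 53.8% of all tested miRNAs called with age, 26.4% as higher, and a median of -0.05. Their difference from the members was not tested. On chromosome X, a cluster of miR-322, miR-351, miR-503, miR-542 and miR-450 lies on the same strand, with Mir322 at 311688 bases from Mir106a, and 5 of its 13 listed arms were tested. All 5 were higher in neonatal cells, among them miR-351-5p (3.64, edgeR adjusted p = 1.96e-06) and miR-322-5p (2.06, adjusted p = 0.00056), with a median of 2.06, beside the 26.4% of all tested miRNAs called higher. That count cannot be read as support, since miR-450a-5p and miR-450b-5p reached 10 CPM in no adult library and were tested only through neonatal ones. The 5 tested arms were also lower in VM than in TN cells over both ages, with a median of -1.17, beside 13.9% of all tested miRNAs called lower and a median of 0.01. Lower calls numbered 40 of 71 in all, and 27 of 86 when scaled by library totals. Their difference from the members in this comparison was not tested. Of those 5 lower calls, 2, miR-322-3p and miR-351-5p, passed under each of the other scalings.

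The miRNAs whose levels ran most like each member, by Pearson's r of log2 CPM over the 7 libraries, are given as a description, the 5 with the highest r for each; the points share their libraries and the age groups. MiR-18b-5p was most like miR-210-3p (r = 0.974), with miR-148b-5p, miR-301a-3p, miR-18a-5p (0.965) and miR-148a-3p next. MiR-18b-3p was most like miR-191-3p (0.987), followed by miR-27b-5p, miR-351-5p, miR-363-5p (0.956) and miR-322-5p. MiR-363-5p was most like miR-27b-5p and miR-322-5p (0.979 each), then miR-8114, miR-351-5p and miR-877-5p. For miR-363-3p the first was miR-5099 (0.989), with miR-298-5p, miR-31-5p, miR-210-5p and then miR-130b-3p next. MiR-106a-5p was most like its 1-base counterpart miR-17-5p (0.962), then miR-340-5p, miR-98-5p, miR-106b-5p and miR-20b-5p (0.784). MiR-20b-5p was most like miR-185-5p (0.890), with miR-219a-5p, miR-19b-3p, miR-30d-3p and miR-142a-3p next, and miR-20b-3p was most like miR-195a-5p (0.811), followed by miR-29c-5p, miR-362-3p, miR-221-3p and miR-20b-5p (0.759).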

How the data were processed

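The authors deposited 1 table of estimated counts per mature miRNA and precursor, with fractional values; the submitters' processing notes name the mm10 build, libraries were made with the Illumina TruSeq small RNA kit per the labels' protocols, and the aligner and counter are not given in the sources used here. The table had 2128 lines and 1978 mature names, 85 of them on more than 1 line; each member stood on 1 line. Lines were summed per name and rounded. A miRNA was tested where 2 or more libraries reached 10 CPM, which 288 did, with edgeR 4.0.16 (TMM factors, robust quasi-likelihood test, Benjamini-Hochberg over all tested within each comparison). An additive model gave the differences averaged over age or subset, and a model of the 4 group means all others. Ratios of counterparts had exact permutation tests with 0.5 counts added. All 7 libraries were used and grouped by title. Every member was named; the 5 most alike miRNAs per member and the lists of related arms and markers were named by rule. The members and lists were chosen with earlier results of these data known. Alternatives were other scalings, filters, DESeq2 1.42.0, a replicate block, the largest line per name and each library left out; TMM factors from all miRNAs were chosen after seeing the data. Reads and targets were not analysed here.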

Additional observations from a re-analysis of the deposited data

How the results depend on the processing

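Over 721 alternative values of the members' log2 fold changes, 672 kept their direction and side of the threshold, 6 lost the call, 18 gained it and 25 turned sign, none of them a called value. The age calls of both arms of miR-18b and of miR-363 over both subsets and in VM cells passed under every alternative in which the arm was tested. The 100 CPM filter left 3 members testable, so its counts were 1 member with age over both subsets, 1 in TN, 1 in VM and 0 between the adult subsets. For subset over both ages the members past the test were 2 with library totals and 1 each with upper quartile factors, no filter and DESeq2; for subset in adult cells they were 2 with no filter. With each library left out in turn they ranged from 4 to 5 with age, 2 to 4 in TN, 4 to 5 in VM, 0 to 1 with subset, 0 to 4 in adult and 0 to 1 in neonatal cells, and 0 for the interaction.

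Library totals moved the median of all tested miRNAs with age from -0.05 to 0.40 and the calls from 76 higher of 155 to 119 of 172, so a small change here is one against that median; miR-106a-5p then passed (0.75, adjusted p = 0.0493). With library totals miR-20b-5p turned to 0.27 with age, 0.16 in TN and 0.34 in VM; miR-20b-3p turned to 0.32 in VM and miR-363-3p to 0.02 between the adult subsets. MiR-363-3p, near 0 for subset over both ages, turned to -0.00 with RLE factors and DESeq2, -0.07 with the 100 CPM filter, -0.06 with the largest precursor line, and -0.09 to 0.07 over left-out libraries. The 100 CPM filter gave miR-20b-5p 0.05 in VM; upper quartile factors gave miR-18b-3p 0.11 for subset in neonatal cells and miR-106a-5p 0.13 for the interaction. Over left-out libraries, miR-20b-5p ranged from -0.36 to 0.03 with age and -0.50 to 0.30 in VM, miR-106a-5p from -0.28 to 0.88 in VM and from -0.14 to 1.05 between the adult subsets, and miR-20b-3p from -0.50 to 0.19 in VM. For the interaction they were -0.71 to 0.45 for miR-106a-5p, -0.28 to 0.54 for miR-20b-5p and -2.16 to 0.05 for miR-18b-5p. The ratio of miR-20b-5p to miR-20a-5p ranged from -0.32 to 0.05 with age and -0.44 to 0.03 with subset. The cause was not tested, except that a filter or a left-out library leaves fewer miRNAs or samples.

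The labels do not say whether replicate numbers pair the libraries. Deviations of same-numbered libraries correlated at 0.0165 (adult VM and TN), 0.138 (VM of both ages) and -0.16 (adult TN and neonatal VM). These values cannot show whether same-numbered libraries share animals or a batch. With a replicate block the miRNAs past the test for subset over both ages fell from 71 to 42, miR-20b-5p turned to -0.00 for the interaction, and no member's call changed. Counts over all miRNAs that moved by over 1.5 times were, for subset over both ages, 41 with the 100 CPM filter and 18 to 111 over left-out libraries; for age in TN 69 with that filter and 83 to 179; for age in VM 93 and for age over both subsets 79 with that filter; for subset in adult cells (112) 23 to 142; for subset in neonatal cells (28) 52 with upper quartile factors, 53 with no filter and 16 to 77; and for the interaction (23) 43 with no filter, 37 with DESeq2 and 6 to 86. Leaving out the only neonatal TN library gave no value for age in TN, subset in neonatal cells or the interaction. Depth limits miR-18b-3p, miR-20b-3p and miR-363-5p, which had 34 counts or fewer in every adult library, and miR-18b-5p, which had 46 or fewer.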
